A study of Homo sapiens with 16 samples.

Results

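The genes described here are 36 targets of the androgen receptor other than the kallikreins, read in LNCaP cells given a cyclin-dependent kinase inhibitor, with and without loss or inhibition of OGT. They were chosen by name, and each was found by matching the Ensembl identifier of a row of the deposited gene counts to its symbol, with ACP3 listed in older annotation as ACPP. All 36 were found among 60252 genes, and all 36 were among the 23830 genes with enough counts to be tested. LNCaP is an established human prostate cancer line from a lymph node metastasis that depends on the androgen receptor. Its RNA was sequenced in 16 samples, 2 in each of 8 groups. The groups crossed 4 arms with 2 agents. The arms were a scrambled siRNA (Scr), siOGT1 and siOGT2, which are 2 siRNAs against OGT applied for 48 hours, and OSMI2, a compound that inhibits the OGT enzyme. The agents were DMSO, the solvent control, and 0.5 μM AT7519, a kinase inhibitor that acts on CDK9 among others, each given for the last 4 hours. How much OSMI2 was given and for how long, and whether its cells also carried scrambled siRNA, were not given in the sources used here. All groups are of 1 cell line, and the labels do not say that the replicates are separate cultures, and p-values therefore measure a spread among samples that may be technical.

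The androgen receptor is a hormone-bound transcription factor that enters the nucleus, binds DNA at paired hexamers with help from pioneer factors such as FOXA1, and recruits coactivators to enhancers and promoters. Its targets in the prostate luminal cell make secreted proteins, transporters, surface antigens, metabolic enzymes and feedback regulators, and their RNA is widely read as a sign of receptor activity. CDK9 is the kinase that releases paused RNA polymerase II into productive elongation. OGT attaches O-GlcNAc to nuclear and cytoplasmic proteins.

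Levels are given as CPM, counts scaled to the library total after TMM adjustment. Rises and falls are therefore relative to the other genes of a library, and absolute amounts of RNA cannot be read from them. With DMSO, the OGT transcript was at 20.7 and 14.6 CPM under siOGT1 and 36.02 and 29.8 CPM under siOGT2, below the 274 and 263 CPM of Scr and the 349 and 336 CPM of OSMI2, so the siRNA labels matched the targeted transcript. Libraries held 40216911 to 147019364 counts. The summed level of 5 luminal epithelial markers was 1902 to 3288 CPM per sample, against 0.173 to 1.24 CPM for 4 basal markers, 2.76 to 7.12 CPM for 4 neuroendocrine markers and 0.0148 to 0.811 CPM for 4 leukocyte markers. Markers of fibroblasts, mostly COL1A1, summed to 10.8 to 41.1 CPM. Their sum was 21.5 to 23.7 CPM in Scr with DMSO, 28.97 to 33.9 CPM in Scr with AT7519 and 10.8 to 12.5 CPM in siOGT1 with DMSO, and COL1A1 was called lower with siOGT1 and higher with AT7519 in Scr and OSMI2. Other markers also moved with the groups. The luminal markers KRT8, EPCAM and CDH1, 3 of the 5, were called higher with AT7519 in every arm. The neuroendocrine marker SYP was called higher with siOGT1, where the 4 markers summed to 5.85 to 6.38 CPM against 3.52 to 3.80 CPM in Scr with DMSO. The leukocyte marker CD68, the only 1 of its 4 with enough counts to be tested, was called lower with AT7519 in every arm. The part of these markers in the results on the 36 genes was not tested. In bulk RNA, fewer cells of a type and less RNA per cell cannot be told apart.

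Levels of the 36 genes in Scr with DMSO spanned a wide range. Per kilobase of exonic length, FOLH1 was highest at 352.5 CPM per kb, followed by STEAP1 at 221.3 and STEAP2 at 99.3 CPM per kb. The lowest were TRPM8 at 0.95, IGF1R at 1.001, MAF at 1.34 and HPGD at 1.5 CPM per kb. Together the 36 genes took 0.681% to 0.820% of the counts of a sample. Their genes are long, with a median span of 61.3 kb against 16.4 kb for the 23332 tested genes with a gene model. Across the 36 genes, the AT7519 response in Scr and the gene span gave a Spearman correlation of -0.14, and across all 23332 genes it gave -0.18, as a description of genes measured in the same libraries.

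AT7519 split the 36 genes. In Scr, 8 rose, 8 fell and 20 did not pass the test, which is a Benjamini-Hochberg adjusted p under 0.05 in edgeR's two-sided quasi-likelihood test over all genes tested. C1orf116, TSC22D3 and MAF fell most, by 5.74, 4.33 and 3.88-fold, and ADAMTS1 rose most, 2.26-fold. Among all genes tested in Scr, 21.8% rose and 24.6% fell, so the shares of 22.2% in each direction among the 36 were close to the background, and the counts by role given below are to be read against these shares. The count of calls in Scr is thus not a result about these genes, and the median response was 0.05 against -0.05 for all genes tested. The background depends on which genes are counted. Of the 10157 genes with a mean log2 CPM of 3 or more, 3175 rose and 3607 fell in Scr, beside 8 and 9 of the 33 members among them.

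The other arms gave similar counts for the siRNAs and a higher count of falls for OSMI2. In siOGT1, 9 rose and 8 fell, against 19.4% higher and 22% lower among all genes (median 0.02 against -0.05). In siOGT2, 8 rose and 7 fell, against 22.2% higher and 22.8% lower (median 0.06 against -0.03). In OSMI2, 9 rose and 14 fell, a share of 38.9% lower against 23.6% for all genes, with 23.6% of all genes higher (median -0.07 against 0.02). Against genes with a mean log2 CPM of 3 or more the OSMI2 shares lay nearer. There 9 of 33 members rose and 13 fell, beside 3658 and 3464 of 10157 genes. The counts were then 9 and 7 in siOGT1, beside 2890 and 3428, and 8 and 10 in siOGT2, beside 3139 and 3380. Every called gene had its AT7519 and DMSO samples apart without overlap in that arm. The same held for 99.8% of all called genes in Scr and 99.9% in each of the other arms. Among genes that did not pass, 6 of 20 were also apart in Scr (30%, against 48.5% of all genes that did not pass), 3 of 19 in the siOGT1 arm (15.8% against 50.1%), 10 of 21 in the siOGT2 arm (47.6% against 46%) and 7 of 13 in the OSMI2 arm (53.8% against 50.9%).

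The balance of rises and falls depended on the scaling of the libraries. TMM factors were 1.05 to 1.13 in DMSO samples and 0.86 to 0.95 in AT7519 samples. With upper-quartile scaling, Scr had 12 rises and 6 falls among the 36, siOGT1 11 and 7, siOGT2 10 and 6, and OSMI2 14 and 11. With library size alone, Scr had 4 rises and 16 falls, siOGT1 5 and 14, siOGT2 6 and 16, and OSMI2 4 and 20. The share of higher calls among all called genes moved alike, in Scr from 47% to 58.7% with upper-quartile scaling and 26.9% with library size alone. The median of the 36 in Scr was 0.20 and -0.20 under these settings, beside 0.10 and -0.30 for all genes, and in OSMI2 it was 0.11 and -0.31, beside 0.20 and -0.22. Library size alone also gave calls to genes that did not pass otherwise: STEAP1 was then lower in all 4 arms (-0.32 to -0.17, adjusted p = 4.64e-04 to 0.0375), SLC45A3 (-0.42 to -0.35) and CENPN (-0.39 to -0.32) in Scr, siOGT1 and siOGT2, and RAB3B in Scr (-0.49), siOGT2 (-0.27) and OSMI2 (-0.31).

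Across the 4 arms, 7 genes rose in each (ABCC4, ADAMTS1, AZGP1, FOLH1, SMS, SORD and TPD52) and 6 fell in each (C1orf116, MAF, MPHOSPH9, PMEPA1, STEAP2 and TSC22D3). These are 19.4% and 16.7% of the 36, against 15% of all genes tested that rose in every arm and 15.3% that fell in every arm. Another 10 passed in no arm (ACP3, ACSL3, ALDH1A3, FKBP5, HERC3, HPGD, RAB3B, SLC43A1, STEAP1 and TRPM8), 27.8% against 37.3% of all genes. Each of these 10 passed in at least 1 arm under at least 1 alternative processing. How many of all genes did so was not counted, so this cannot be read as a trait of the 10. ACP3 did so only with upper-quartile scaling, and FKBP5 and STEAP1 only with library size alone. No gene of the 36 was called in opposite directions in different arms, against 0.185% of all genes. The heat map of responses shows these groups by role. Each arm has its own DMSO samples, so these 4 contrasts share no library. They may still not be independent. Same-numbered samples of the siRNA arms deviated together under the same agent (r of 0.604 to 0.734) but not between agents (-0.135 to 0.038). The source of this was not tested.

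**Figure D1:**
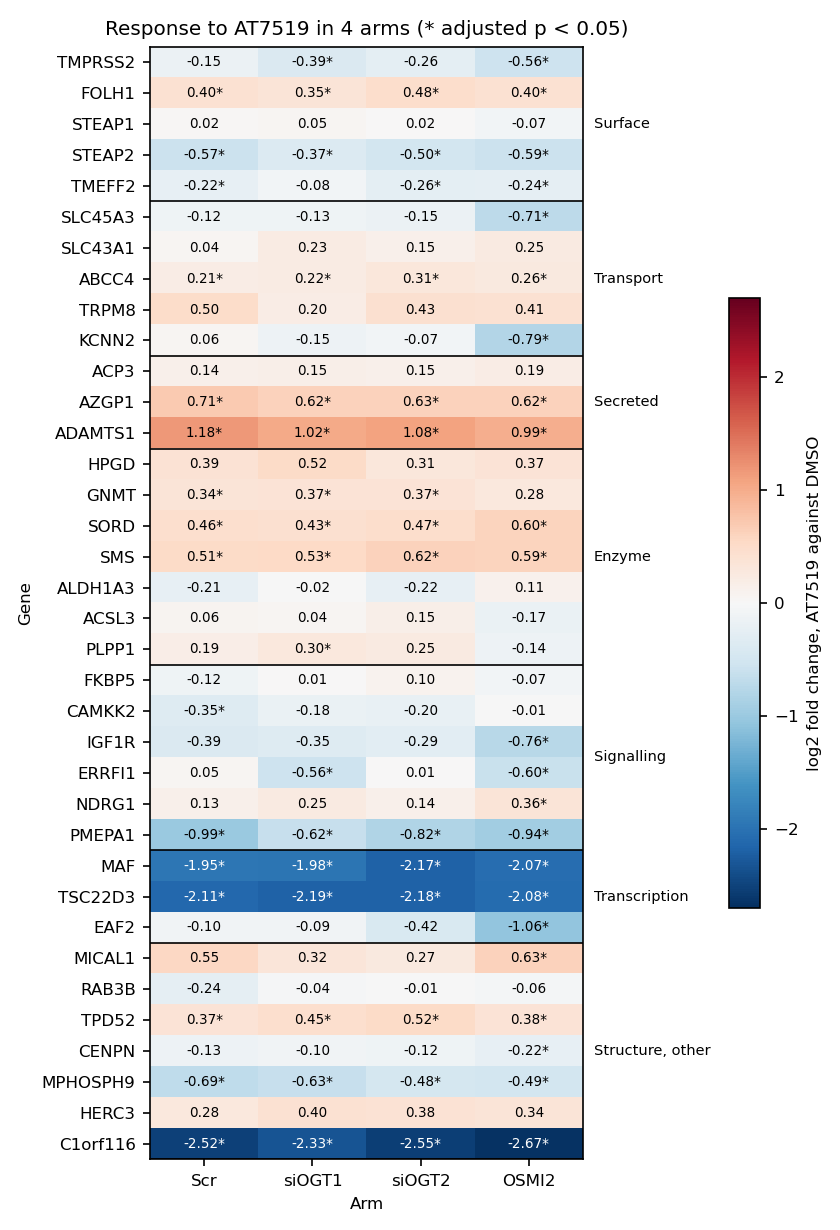
Heat map of the log2 fold change of AT7519 against DMSO for the 36 genes (rows, grouped by role) in the Scr, siOGT1, siOGT2 and OSMI2 arms (columns, 2 samples per agent and arm). Numbers give the log2 fold change and an asterisk marks a call; C1orf116, TSC22D3 and MAF are the darkest blue in every arm and ADAMTS1 the darkest red.

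Among 5 surface proteins, 1 rose and 2 fell with AT7519 in Scr. FOLH1 (ENSG00000086205), which encodes the folate hydrolase known as prostate-specific membrane antigen, read 1388 and 1308 CPM with DMSO and 1903 and 1662 CPM with AT7519 in Scr (log2 fold change 0.40, SE 0.09, adjusted p = 6.53e-04). For FOLH1, the siOGT1 arm went from 1577 and 1581 to 2135 and 1888 CPM, the siOGT2 arm from 1606 and 1608 to 2409.5 and 2059 CPM and the OSMI2 arm from 1246 and 1315 to 1651 and 1734 CPM. Every AT7519 sample was above both DMSO samples of its arm. STEAP2 (ENSG00000157214), a metalloreductase of the cell surface and endosomes, read 856 and 875 CPM with DMSO and 601 and 561 CPM with AT7519 in Scr (log2 fold change -0.57, SE 0.07, adjusted p = 1.68e-06). For STEAP2, the siOGT1 arm went from 1076 and 1089 to 852 and 820.3 CPM, the siOGT2 arm from 1005 and 1033 to 719 and 724 CPM and the OSMI2 arm from 1091 and 1193 to 730.2 and 789 CPM. STEAP2 was thus lower with AT7519 in each arm, without overlap, and every arm with OGT siRNA or OSMI2 started above the Scr samples.

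TMEFF2 (ENSG00000144339), a transmembrane protein with follistatin-like modules, read 459 and 435 CPM with DMSO and 391 and 377 CPM with AT7519 in Scr (log2 fold change -0.22, SE 0.08, adjusted p = 0.0328). For TMEFF2, the siOGT1 arm went from 538 and 573 to 542 and 509 CPM, the siOGT2 arm from 507 and 529 to 456 and 408 CPM and the OSMI2 arm from 391 and 445 to 341 and 367 CPM. Its Scr call was lost without Scr DMSO replicate 1 (-0.18), Scr AT7519 replicate 1 (-0.21) or Scr AT7519 replicate 2 (-0.18). Such a fit leaves 1 sample in a group, so these losses do not show that the call rested on those libraries. The Scr call was also lost without either OSMI2 AT7519 sample (-0.20), and the Scr value was -0.07 with upper-quartile scaling (adjusted p = 0.514). The siOGT2 call of TMEFF2 ended without siOGT2 DMSO replicate 2 (-0.24, adjusted p = 0.084) or siOGT2 AT7519 replicate 2 (-0.18, adjusted p = 0.133). Its OSMI2 call ended without OSMI2 DMSO replicate 2 (-0.15, adjusted p = 0.242) or OSMI2 AT7519 replicate 1 (-0.24, adjusted p = 0.0785).

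TMPRSS2, the membrane serine protease whose promoter is often fused to ERG in prostate cancer, was called lower in siOGT1 (log2 fold change -0.39) and OSMI2 (-0.56) and not in Scr (-0.15) or siOGT2 (-0.26). The siOGT1 call of TMPRSS2 was lost without siOGT1 DMSO replicate 1 (-0.20, adjusted p = 0.248) and without siOGT1 AT7519 replicate 2 (-0.29, adjusted p = 0.102). STEAP1, a surface antigen related to STEAP2, ranged over -0.07 to 0.05 between arms. The values of FOLH1 and STEAP1 are uncertain to the extent that reads were shared with the near-identical copies FOLH1B and STEAP1B, which read 18.9 to 37.5 CPM and 3.50 to 5.83 CPM across samples. With library size as the only scaling, FOLH1 had a log2 fold change of 0.15 in Scr (adjusted p = 0.0634), 0.12 in siOGT1 (0.145) and 0.15 in OSMI2 (0.0674).

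Of 5 transporters and channels, ABCC4 was the only one called in Scr, and 2 more fell in OSMI2. ABCC4, an exporter of cyclic nucleotides and prostaglandins, read 286 and 299 CPM with DMSO and 347 and 328 CPM with AT7519 in Scr (log2 fold change 0.21, SE 0.08, adjusted p = 0.0296). For ABCC4, the siOGT1 arm went from 282 and 301 to 345 and 334 CPM, the siOGT2 arm from 329 and 368 to 441 and 423 CPM and the OSMI2 arm from 323 and 334 to 379 and 409 CPM. These differences were small, and with library size as the only scaling they turned to -0.04 in Scr and -0.0046 in siOGT1 and stood at 0.04 in siOGT2 and 0.01 in OSMI2. Its Scr call was lost without Scr DMSO replicate 1 (0.17, adjusted p = 0.179), Scr DMSO replicate 2 (0.23, 0.0721) or Scr AT7519 replicate 1 (0.20, 0.114). Single libraries also ended the ABCC4 call in siOGT1 (without DMSO replicate 1, adjusted p = 0.203, and without AT7519 replicate 1, 0.114), in siOGT2 (without DMSO replicate 1, 0.059) and in OSMI2 (without DMSO replicate 1, 0.074, and without AT7519 replicate 2, 0.149).

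SLC45A3, the prostate-restricted transporter prostein, and KCNN2, a calcium-activated potassium channel, fell with AT7519 in OSMI2 by 0.71 and 0.79 on the log2 scale. In the other arms SLC45A3 ranged from -0.15 to -0.12 and KCNN2 from -0.15 to 0.06, and none of these passed. SLC43A1, a neutral amino acid transporter, ranged over 0.04 to 0.25, and TRPM8, the cold-sensing cation channel, over 0.20 to 0.50. TRPM8 passed as higher in Scr with DESeq2 (0.54, adjusted p = 0.0286), RLE scaling (0.55, 0.0397) and upper-quartile scaling (0.66, 0.0193), and SLC43A1 passed with upper-quartile scaling in siOGT1 (0.36, 0.0114) and OSMI2 (0.42, 0.00321). TRPM8 read 4.67 to 12.7 CPM at its lowest and highest sample. An exon of KCNN2 overlaps one of ENSG00000246316 on the opposite strand, and the strand setting was not given in the sources used here, so its values are uncertain.

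Secreted products rose or did not pass. ADAMTS1 (ENSG00000154734), a secreted metalloprotease that cuts matrix proteoglycans, read 508 and 534 CPM with DMSO and 1174 and 1180.0 CPM with AT7519 in Scr (log2 fold change 1.18, SE 0.07, adjusted p = 1.96e-10). For ADAMTS1, the siOGT1 arm went from 300.4 and 313 to 640.0 and 599.6 CPM, the siOGT2 arm from 449 and 452 to 960.0 and 944 CPM and the OSMI2 arm from 457 and 480.2 to 967 and 893 CPM. ADAMTS1 was higher in every AT7519 sample than in any DMSO sample of any arm, with log2 fold changes of 1.02 in siOGT1, 1.08 in siOGT2 and 0.99 in OSMI2. AZGP1 (ENSG00000160862), a zinc-binding glycoprotein of seminal fluid, read 11.2 and 12.1 CPM with DMSO and 19.3 and 18.6 CPM with AT7519 in Scr (log2 fold change 0.71, SE 0.13, adjusted p = 1.19e-04). For AZGP1, the siOGT1 arm went from 12.01 and 14.5 to 20.7 and 19.96 CPM, the siOGT2 arm from 9.77 and 12.2 to 15.7 and 18.2 CPM and the OSMI2 arm from 15.4 and 16.3 to 24.9 and 23.6 CPM. AZGP1 was higher in every AT7519 sample than in both DMSO samples of its arm. ACP3, the prostatic acid phosphatase, ranged over 0.14 to 0.19 and passed in no arm.

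Of 7 metabolic enzymes, 3 rose with AT7519 in Scr, where 21.8% of all genes rose, and the other 4 did not pass. SMS (ENSG00000102172), the spermine synthase, read 118 and 127 CPM with DMSO and 181 and 168 CPM with AT7519 in Scr (log2 fold change 0.51, SE 0.08, adjusted p = 4.64e-05). For SMS, the siOGT1 arm went from 113 and 125 to 177 and 167 CPM, the siOGT2 arm from 115 and 121 to 192 and 172 CPM and the OSMI2 arm from 100.2 and 89.6 to 142 and 145 CPM. SORD (ENSG00000140263), the sorbitol dehydrogenase of the polyol pathway, read 541 and 615 CPM with DMSO and 803 and 791 CPM with AT7519 in Scr (log2 fold change 0.46, SE 0.08, adjusted p = 9.13e-05). For SORD, the siOGT1 arm went from 559 and 616 to 776 and 809 CPM, the siOGT2 arm from 508 and 569 to 761 and 726 CPM and the OSMI2 arm from 519 and 525 to 754 and 825 CPM. Neither gene had overlapping agents in any arm. The pseudogene SORD2P, a near-identical copy, read 24.2 to 38.3 CPM, and the authors' counting could split reads between the pair.

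GNMT, which methylates glycine, was called higher in Scr (0.34), siOGT1 (0.37) and siOGT2 (0.37) and stood at 0.28 in OSMI2. Leaving out any of the 4 samples of the arm ended that call in each of these 3 arms, except siOGT2 AT7519 replicate 1, with adjusted p-values of 0.0579 to 0.235. PLPP1, a phosphatase of lysophospholipids and other lipids, was called higher in siOGT1 (0.30), and lost the call without siOGT1 DMSO replicate 1 (0.22, adjusted p = 0.214) or siOGT1 AT7519 replicate 1 (0.22, adjusted p = 0.163). Of the enzymes that passed in no arm, HPGD, which degrades prostaglandins, ranged over 0.31 to 0.52, ALDH1A3, which makes retinoic acid, over -0.22 to 0.11, and ACSL3, which activates fatty acids, over -0.17 to 0.15. ACSL3 passed as lower in OSMI2 with no low-count filter (-0.23, adjusted p = 0.0298), with only the groups compared (-0.21, 0.038) and with the mean log2 CPM filter (-0.18, 0.041). With library size alone, ALDH1A3 was lower in Scr (-0.46, adjusted p = 0.00111) and siOGT2 (-0.49, 7.61e-04) and PLPP1 lower in OSMI2 (-0.39, 0.00176). Under that scaling the GNMT calls were lost in Scr (0.09, 0.586), siOGT1 (0.15, 0.378) and siOGT2 (0.11, 0.525), and the PLPP1 call in siOGT1 (0.07, 0.573). HPGD stood higher in replicate 2 than in replicate 1 in every Scr, siOGT1 and siOGT2 group, at 5.71 and 10.9 CPM in Scr with DMSO. Exons of GNMT (with PEX6), ALDH1A3 (with ALDH1A3-AS1), ACSL3 (with ACSL3-AS1) and PLPP1 (with RNF138P1 on the same strand and MTREX on the other) overlap a neighbour, so these values are uncertain.

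Of 6 signalling regulators, PMEPA1 and CAMKK2 fell in Scr and none rose. PMEPA1 (ENSG00000124225), a membrane protein that restrains TGF-beta signalling, read 42.6 and 47.99 CPM with DMSO and 21.7 and 23.7 CPM with AT7519 in Scr (log2 fold change -0.99, SE 0.13, adjusted p = 2.77e-06). For PMEPA1, the siOGT1 arm went from 50.7 and 57.2 to 31.9 and 38.1 CPM, the siOGT2 arm from 44.3 and 48.8 to 23.7 and 29.1 CPM and the OSMI2 arm from 57.9 and 60.8 to 26.98 and 35.03 CPM. It was lower in both AT7519 samples of every arm, though its exons overlap NKILA on the opposite strand. CAMKK2 (ENSG00000110931), a calcium-dependent kinase upstream of AMPK, read 109 and 96.2 CPM with DMSO and 85.6 and 75.2 CPM with AT7519 in Scr (log2 fold change -0.35, SE 0.11, adjusted p = 0.0107). For CAMKK2, the siOGT1 arm went from 109 and 99.7 to 93.6 and 91.5 CPM, the siOGT2 arm from 78.1 and 69.7 to 65.5 and 62.99 CPM and the OSMI2 arm from 96.9 and 113 to 91.9 and 116.02 CPM. In OSMI2 the agents overlapped. The Scr call of CAMKK2 was lost without Scr DMSO replicate 1 (-0.26, adjusted p = 0.129), without Scr AT7519 replicate 2 (-0.26, adjusted p = 0.124) and with upper-quartile scaling (-0.20, adjusted p = 0.121).

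FKBP5, a co-chaperone of steroid receptors and one of the most used androgen readouts, ranged over -0.12 to 0.10 with AT7519 and passed in no arm. With library size alone, FKBP5 was called lower in Scr (-0.36, adjusted p = 0.00233) and OSMI2 (-0.32, adjusted p = 0.00667). ERRFI1, a feedback inhibitor of the EGF receptor, was called lower in siOGT1 (-0.56) and OSMI2 (-0.60) but read 0.05 in Scr and 0.01 in siOGT2. IGF1R, the receptor of insulin-like growth factors, was lower in OSMI2 (-0.76, adjusted p = 0.0234) and ranged from -0.39 to -0.29 elsewhere. NDRG1, a stress-responsive suppressor of metastasis, was called higher in OSMI2 (0.36) and ranged from 0.13 to 0.25 elsewhere. In OSMI2 the IGF1R call was lost without DMSO replicate 1 (-0.59, adjusted p = 0.149), AT7519 replicate 1 (-0.86, 0.0782) or AT7519 replicate 2 (-0.73, 0.114). The NDRG1 call was lost without OSMI2 DMSO replicate 1 (0.34, 0.0839), DMSO replicate 2 (0.36, 0.0685) or AT7519 replicate 2 (0.11, 0.535).

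Of 3 transcription regulators, MAF and TSC22D3 had some of the largest falls of the 36 genes. TSC22D3 (ENSG00000157514), the glucocorticoid-induced leucine zipper protein, read 67.1 and 73.5 CPM with DMSO and 16.97 and 15.5 CPM with AT7519 in Scr (log2 fold change -2.11, SE 0.12, adjusted p = 9.41e-11). For TSC22D3, the siOGT1 arm went from 55.4 and 65.6 to 12.1 and 14.4 CPM, the siOGT2 arm from 65.4 and 76.1 to 14.4 and 16.9 CPM and the OSMI2 arm from 85.98 and 82.7 to 18.9 and 21.1 CPM. MAF (ENSG00000178573), a basic leucine zipper factor, read 7.73 and 10.9 CPM with DMSO and 2.63 and 2.18 CPM with AT7519 in Scr (log2 fold change -1.95, SE 0.25, adjusted p = 2.38e-06). For MAF, the siOGT1 arm went from 5.12 and 6.92 to 1.32 and 1.68 CPM, the siOGT2 arm from 7.31 and 7.47 to 1.38 and 1.89 CPM and the OSMI2 arm from 9.29 and 11.8 to 1.86 and 3.32 CPM. Every AT7519 sample of both genes was below every DMSO sample of any arm. MAF was too low to be tested where a mean log2 CPM of 3 was required, and an exon of TSC22D3 overlaps NCBP2L on the opposite strand. EAF2, a partner of the ELL elongation factors, was called lower in OSMI2 (-1.06, adjusted p = 0.00265), with values of -0.10 in Scr, -0.09 in siOGT1 and -0.42 in siOGT2. It was a low gene, at 3.73 and 2.95 CPM with DMSO and 1.98 and 1.13 CPM with AT7519 in OSMI2.

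The remaining 7 genes act in trafficking, the cytoskeleton, division and ubiquitylation or are little known. C1orf116 (ENSG00000182795), also called specifically androgen-regulated gene and of unclear function, read 199 and 225 CPM with DMSO and 37.6 and 36.3 CPM with AT7519 in Scr (log2 fold change -2.52, SE 0.10, adjusted p = 1.70e-12). For C1orf116, the siOGT1 arm went from 222 and 236 to 44.6 and 46.7 CPM, the siOGT2 arm from 223 and 248 to 38.8 and 41.96 CPM and the OSMI2 arm from 241 and 243 to 34.3 and 41.6 CPM. The fall was the largest of the 36 in every arm, without overlap. MPHOSPH9 (ENSG00000051825), a centriole protein that restrains cilium formation, read 80.9 and 89.7 CPM with DMSO and 52.8 and 52.7 CPM with AT7519 in Scr (log2 fold change -0.69, SE 0.09, adjusted p = 3.02e-06). For MPHOSPH9, the siOGT1 arm went from 77.4 and 76.3 to 46.1 and 53.1 CPM, the siOGT2 arm from 82.2 and 78.4 to 53.6 and 61.9 CPM and the OSMI2 arm from 85.7 and 80.1 to 59.6 and 58.1 CPM. TPD52 (ENSG00000076554), a vesicle trafficking protein amplified in prostate cancer, read 152 and 169.8 CPM with DMSO and 206 and 209 CPM with AT7519 in Scr (log2 fold change 0.37, SE 0.08, adjusted p = 7.85e-04). For TPD52, the siOGT1 arm went from 161 and 176 to 222 and 238 CPM, the siOGT2 arm from 156 and 175 to 245 and 231 CPM and the OSMI2 arm from 159 and 149.9 to 201 and 199 CPM. TPD52 was higher in both AT7519 samples of every arm, and with library size as the only scaling its values were 0.12 in Scr (adjusted p = 0.202) and 0.13 in OSMI2 (0.195).

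MICAL1, which oxidises actin, was called higher in OSMI2 (0.63, adjusted p = 0.0463), and CENPN, a centromere protein, lower (-0.22, adjusted p = 0.048). Both calls were close to the threshold. CENPN did not pass with RLE scaling (-0.21, adjusted p = 0.0702), upper-quartile scaling (-0.05, 0.641), DESeq2 (-0.21, 0.0778) or voom (-0.22, 0.0501). MICAL1 did not pass with library size alone (0.38, 0.304) or with no low-count filter (0.57, 0.0962). The MICAL1 call ended without any 1 of the 4 OSMI2 samples (0.41 to 0.75, adjusted p = 0.0661 to 0.301), either Scr DMSO sample or any DMSO sample of the siRNA arms (0.62, adjusted p = 0.0668 to 0.0744). The CENPN call ended without OSMI2 DMSO replicate 1 or 2 or OSMI2 AT7519 replicate 2 (-0.24 to -0.21, adjusted p = 0.108 to 0.166) and without any DMSO sample of the other 3 arms (-0.23, 0.0523 to 0.056). RAB3B, a small GTPase of secretory vesicles, ranged over -0.24 to -0.01, and HERC3, a ubiquitin ligase of the HECT class, over 0.28 to 0.40. Exons of MICAL1 (with ZBTB24, same strand), MPHOSPH9 (with ENSG00000280120, same strand, and MTRFR) and CENPN (with CENPN-AS1 and CMC2) overlap a neighbour, so their values are uncertain. The plot of CPM by sample shows 12 of the genes described above.

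**Figure D2:**
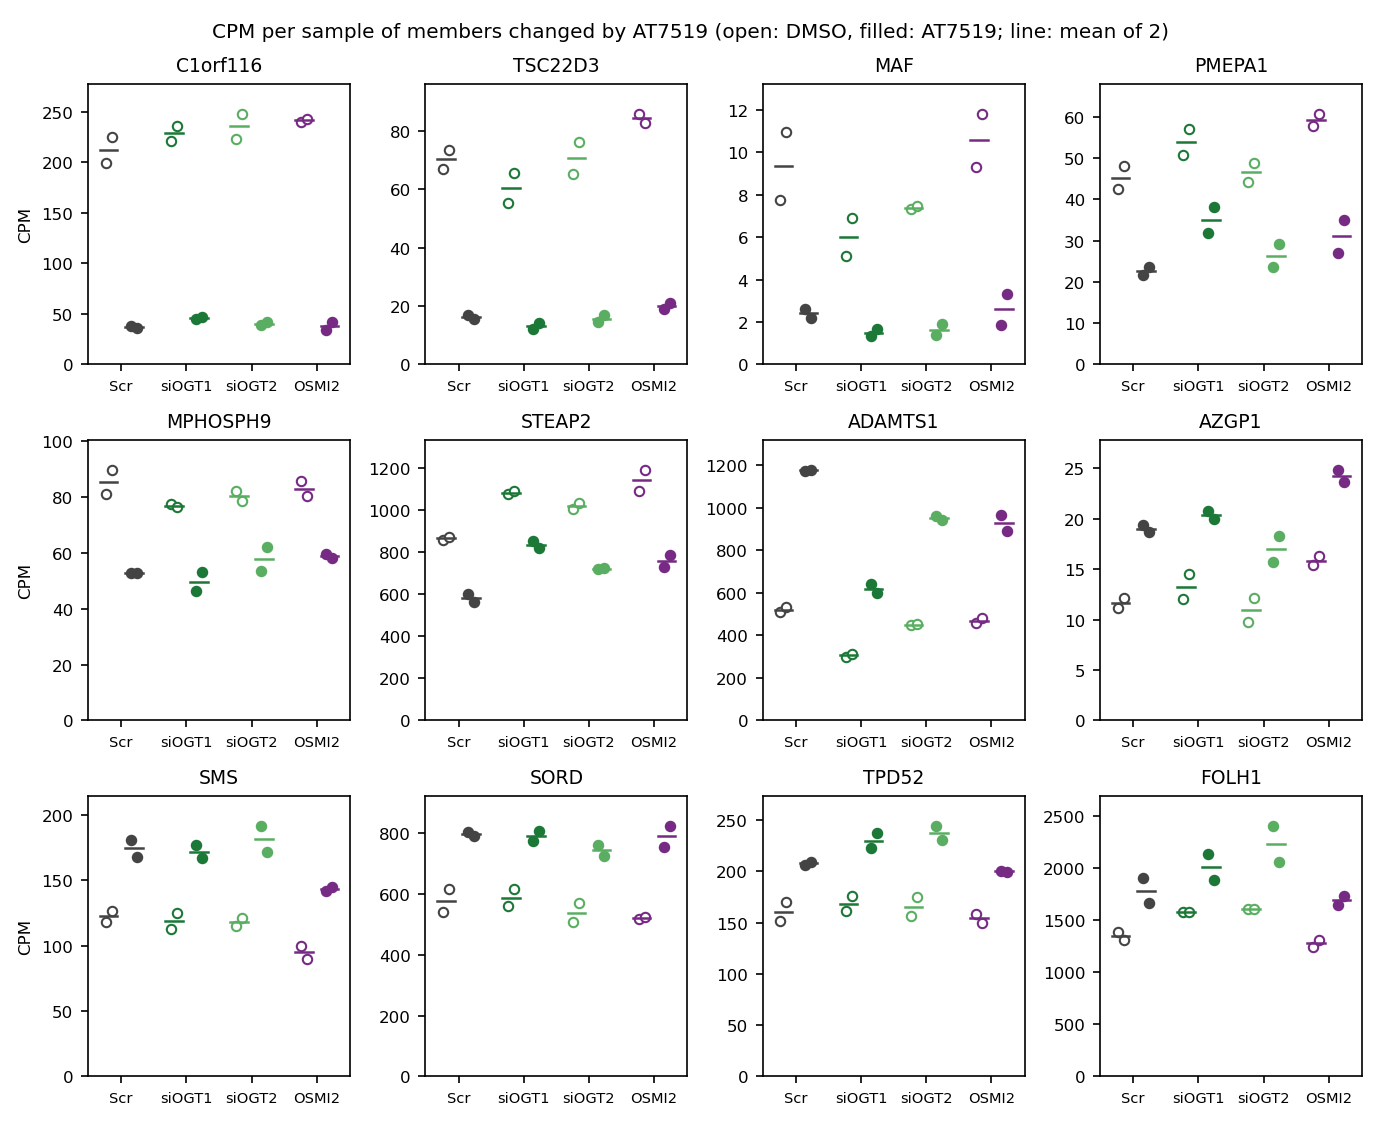
CPM per sample (vertical axes, from 0) of 12 genes in the Scr, siOGT1, siOGT2 and OSMI2 arms (horizontal axes), with DMSO samples open, AT7519 samples filled and a line at the mean of 2. The first 6 genes have their AT7519 samples below the DMSO samples in each arm, and the last 6 have them above.

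Promoter sequence was examined because members of the set moved in opposite directions. RefSeq promoters on GRCh38.p14, from 250 bases before to 50 after the start, were found for 29 of the 36 genes (46 promoters, of 35116 in the table). TATAAA on the gene strand stood in 10.9% of the 46 and 7.33% of all promoters. GTAAACA on either strand, the core of forkhead sites, stood in 6.5% against 3.42%. AGAACA on either strand, the hexamer bound by each receptor subunit, stood in 10.9% against 14.8%, in FKBP5, MICAL1, PMEPA1 and TRPM8. The paired site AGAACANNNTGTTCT stood in none of the 46 and in 1 of the 35116. Matches to different motifs can overlap, and a match is a description, not a site or a cause.

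The TATAAA matches were set beside the AT7519 calls. Of the 6 genes lower in all 4 arms, 3 held one (MAF, STEAP2 and TSC22D3). None of the 3 genes higher in all 4 arms with a promoter in the table did. ADAMTS1, FOLH1, SORD and TPD52, also higher in all 4 arms, had no promoter there. Of the 20 others 2 held one, SLC43A1 and TRPM8, which passed in no arm, and the TRPM8 match ended 21 bases before its annotated start. No test was made of these counts, and the share among all genes that fell in every arm was not counted. A gene was counted if any of its promoters held a match, and genes had unequal numbers of promoters. TSC22D3 and STEAP2 also had promoters without a match. The windows around the matches of MAF, TSC22D3 and STEAP2 are shown with the match in capitals, 5′ to 3′ on the gene's strand. They are followed by the window around 1 of the AGAACA matches of PMEPA1, which lie in 2 separate promoters of that gene. The match shown for PMEPA1 reads TGTTCT on the gene strand.
MAF (chr16:79600738-79600792, minus strand): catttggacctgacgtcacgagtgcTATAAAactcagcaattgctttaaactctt
TSC22D3 (chrX:107717063-107717116, minus strand): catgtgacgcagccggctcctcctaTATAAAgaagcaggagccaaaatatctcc
STEAP2 (chr7:90213751-90213806, plus strand): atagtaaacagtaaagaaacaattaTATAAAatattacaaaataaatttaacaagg
PMEPA1 (chr20:57710776-57710827, minus strand): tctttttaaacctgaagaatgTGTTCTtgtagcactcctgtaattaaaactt
In MAF the match ended 24 bases before the annotated start, in TSC22D3 23 bases and in STEAP2 38 bases. The 100 bases before the start of C1orf116, the gene that fell most, and of AZGP1 and SMS, which rose, are set beside them and hold none of these motifs.
C1orf116 (chr1:207032757-207032856, minus strand): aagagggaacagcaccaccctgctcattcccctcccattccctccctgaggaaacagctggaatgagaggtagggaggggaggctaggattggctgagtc
AZGP1 (chr7:99976032-99976131, minus strand): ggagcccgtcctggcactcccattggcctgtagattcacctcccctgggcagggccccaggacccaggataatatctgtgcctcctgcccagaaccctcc
SMS (chrX:21940609-21940708, plus strand): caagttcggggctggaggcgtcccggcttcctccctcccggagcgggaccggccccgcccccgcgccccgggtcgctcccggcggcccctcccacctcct
The median GC content of the 46 promoters was 64.7%, against 58.7% for all promoters in the table.

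Without AT7519, few of the 36 genes differed between the OGT arms and Scr. With siOGT1, 4 were higher and 2 lower, against 4.89% higher and 5.51% lower among all genes tested (median 0.02 against -0.01). With siOGT2, 2 were higher and 3 lower, against 1.92% and 2.38% (median -0.04 against -0.02). With OSMI2, 2 were higher and 2 lower, against 0.491% and 2.49% (median 0.09 against -0.01). With upper-quartile scaling the OSMI2 split was 3 higher and 0 lower, with library size alone 4 and 0, and the share of higher calls among all called genes moved from 16.5% to 41.5% and 53.6%. These 3 comparisons use the same 2 Scr samples, so their results are not independent, and the plot of differences from Scr sets them side by side.

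**Figure D3:**
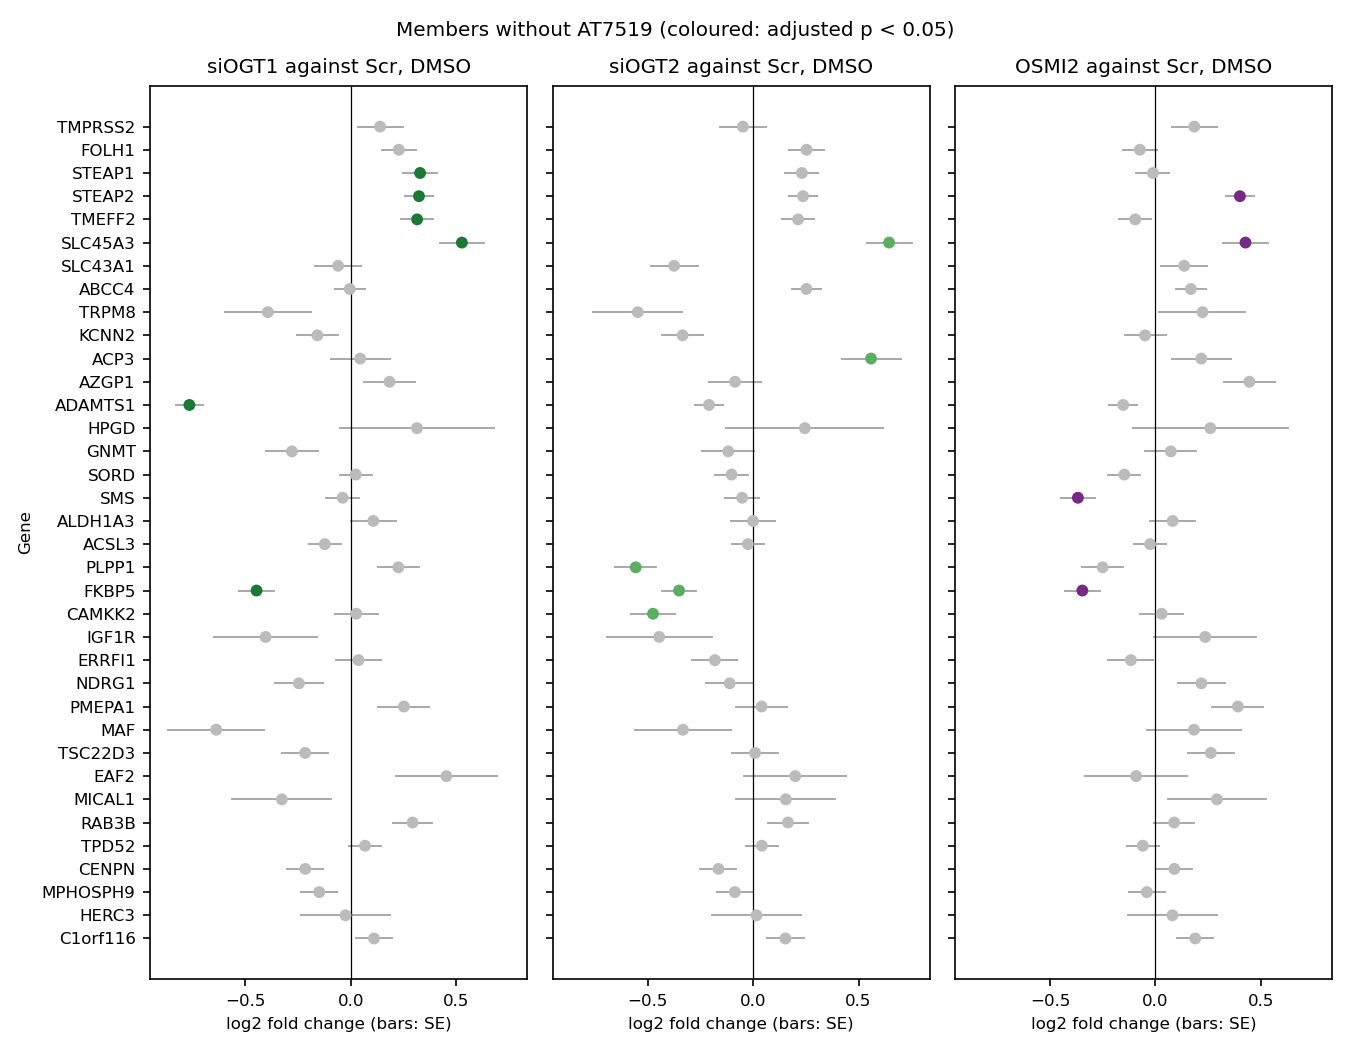
Log2 fold change against Scr under DMSO (horizontal axes, bars are standard errors) of the 36 genes (vertical axis) for siOGT1, siOGT2 and OSMI2, with 2 samples per group and called genes coloured. SLC45A3 is coloured to the right of 0 and FKBP5 to the left of 0 in all 3 panels.

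SLC45A3 (ENSG00000158715) and FKBP5 (ENSG00000096060) were called with both siRNAs and in the same direction. Both comparisons use the same Scr samples. SLC45A3 with DMSO read 153 and 181 CPM in Scr, 216 and 266 CPM under siOGT1, 230.0 and 292 CPM under siOGT2 and 222 and 227 CPM under OSMI2. The Scr samples were the lowest, and no other group overlapped them (siOGT1 log2 fold change 0.53, SE 0.11, adjusted p = 0.00421; siOGT2 0.64, SE 0.11, adjusted p = 0.00212). FKBP5 with DMSO read 136 and 159 CPM in Scr, 102 and 114 CPM under siOGT1, 109 and 122 CPM under siOGT2 and 121 and 111 CPM under OSMI2. Both Scr samples of FKBP5 were above those of every other arm (siOGT1 log2 fold change -0.45, SE 0.09, adjusted p = 0.00231; siOGT2 -0.35, SE 0.09, adjusted p = 0.0248).

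With OSMI2, SLC45A3 was higher (log2 fold change 0.43, SE 0.11, adjusted p = 0.0408) and FKBP5 lower (log2 fold change -0.35, SE 0.09, adjusted p = 0.0342), both near the threshold. Many of these calls did not pass with 1 library left out. Such a fit leaves 1 sample in that library's group, so a loss does not show that the call rested on that library. SLC45A3 lost its call without Scr DMSO replicate 1 in siOGT1 (0.41, adjusted p = 0.0848), siOGT2 (0.53, 0.0542) and OSMI2 (0.31, 0.296). It also lost it without siOGT1 DMSO replicate 2 (0.37, 0.115) and siOGT2 DMSO replicate 2 (0.46, 0.0836) in those arms. FKBP5 lost its call without Scr DMSO replicate 2 in siOGT1 (-0.34, 0.0642), siOGT2 (-0.25, 0.334) and OSMI2 (-0.24, 0.49). In siOGT2, FKBP5 also lost it without siOGT2 DMSO replicate 1 (-0.28, 0.225) or 2 (-0.44, 0.0678). With OSMI2, the SLC45A3 call also ended without Scr DMSO replicate 2, any OSMI2 sample, siOGT1 AT7519 replicate 1 or either siOGT2 AT7519 sample (0.0509 to 0.282), and with RLE scaling (0.42, 0.0545). The FKBP5 call with OSMI2 also ended without any OSMI2 sample, either Scr AT7519 sample or either siOGT1 AT7519 sample (0.0575 to 0.348), and with upper-quartile scaling (-0.28, 0.127).

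STEAP2 was higher with OSMI2 (log2 fold change 0.40, SE 0.07, adjusted p = 0.00476) and with siOGT1 (difference 0.32, SE 0.07, adjusted p = 0.00567), and read 0.24 with siOGT2. Its OSMI2 call was lost without Scr DMSO replicate 2 (0.41, adjusted p = 0.104) or OSMI2 DMSO replicate 2 (0.33, 0.132), and its siOGT1 call without Scr DMSO replicate 1 (0.31, 0.066) or siOGT1 DMSO replicate 2 (0.32, 0.0685). SMS was lower with OSMI2 (log2 fold change -0.37, SE 0.08, adjusted p = 0.0223), at 100.2 and 89.6 CPM against 118 and 127 CPM in Scr. It lost the call without Scr DMSO replicate 2 (-0.32, 0.314), without OSMI2 DMSO replicate 2 (-0.29, 0.312), with upper-quartile scaling (-0.30, 0.0574) and with library size alone (-0.27, 0.0711).

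The largest difference among the 36 genes in an OGT arm was that of ADAMTS1 with siOGT1, at 300.4 and 313 CPM against 508 and 534 CPM in Scr (log2 fold change -0.77, SE 0.07, adjusted p = 1.42e-06). The siOGT2 samples read 449 and 452 CPM (log2 fold change -0.21, not passed). The other siOGT1 calls were STEAP1 (0.33, adjusted p = 0.0143) and TMEFF2 (0.31, adjusted p = 0.0153). Those of siOGT2 were ACP3 (0.56, adjusted p = 0.0365), PLPP1 (-0.56, adjusted p = 0.00341) and CAMKK2 (-0.47, adjusted p = 0.0154). STEAP1 lost its call without any 1 of the 4 samples compared (adjusted p = 0.0764 to 0.122), and TMEFF2 without either Scr DMSO sample or siOGT1 DMSO replicate 2 (0.0586 to 0.189). ACP3 lost it without any 1 of the 4 samples compared (0.0796 to 0.34), CAMKK2 without Scr DMSO replicate 1 (-0.38, 0.173) or siOGT2 DMSO replicate 2 (-0.40, 0.227), and PLPP1 without siOGT2 DMSO replicate 2 (-0.55, 0.0569).

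The counts moved when a library was left out. Calls among all genes moved too, and without Scr DMSO replicate 1 they were fewer in each of these comparisons. The changes below can therefore not be read as particular to the 36 genes. The siOGT1 count of 6 was 2 without Scr DMSO replicate 1, 3 without Scr DMSO replicate 2 and 2 without siOGT1 DMSO replicate 2. The siOGT2 count of 5 was 2 without Scr DMSO replicate 1, 3 without Scr DMSO replicate 2, 3 without siOGT2 DMSO replicate 1 and 0 without siOGT2 DMSO replicate 2, and it was 8 without either siOGT2 AT7519 sample. The OSMI2 count of 4 was 0 without Scr DMSO replicate 2 or OSMI2 DMSO replicate 2, and 2 without OSMI2 DMSO replicate 1, either OSMI2 AT7519 sample or siOGT1 AT7519 replicate 1. Where a group is left with 1 sample, its spread is taken from the other groups. The plot of 8 genes by arm shows how near these groups lie.

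**Figure D4:**
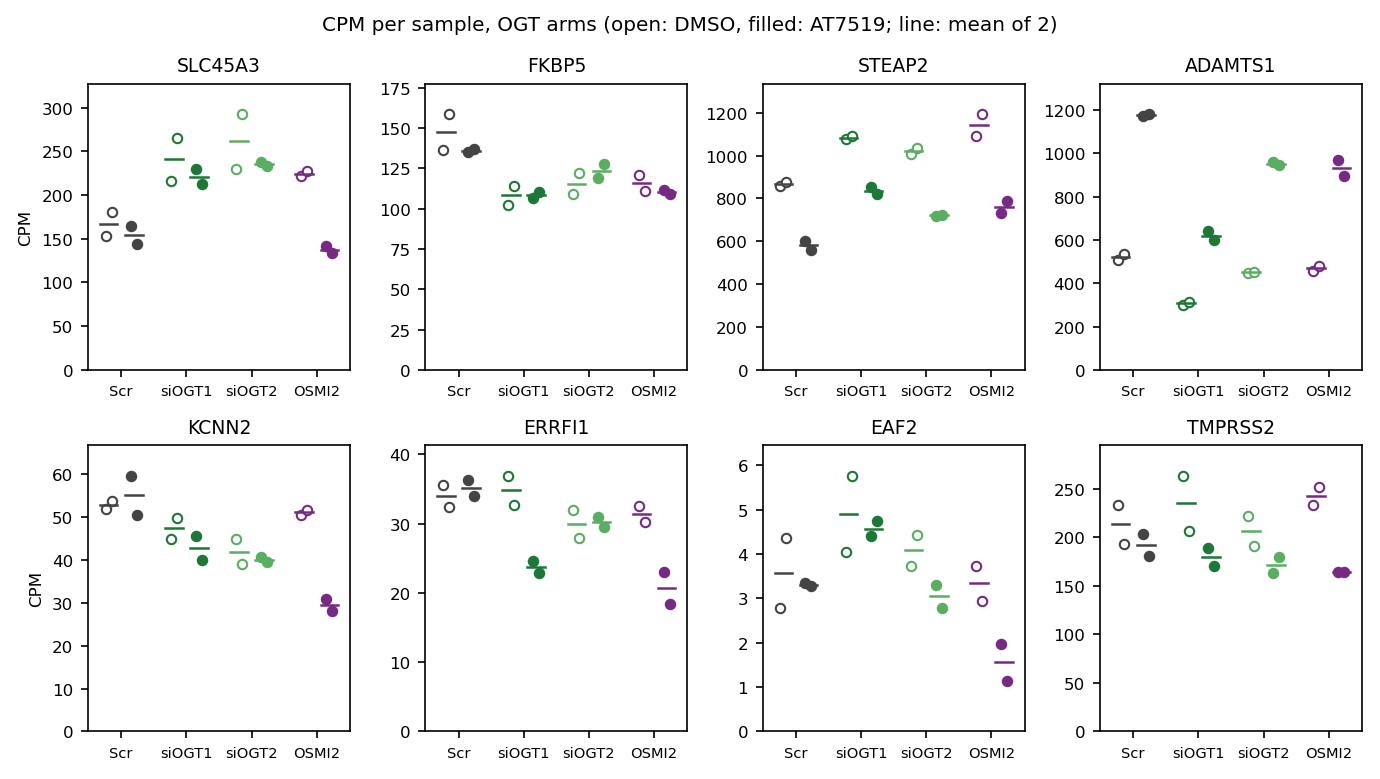
CPM per sample (vertical axes, from 0) of 8 genes in the 4 arms (horizontal axes), with DMSO samples open, AT7519 samples filled and a line at the mean of 2. Open SLC45A3 points lie lower and open FKBP5 points higher in Scr than in the other arms, and the filled KCNN2 points are lowest in OSMI2.

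The AT7519 response of each OGT arm was tested for a difference from that in Scr. Whether OSMI2 cells carried scrambled siRNA was not given. For OSMI2, loss of OGT activity therefore cannot be told apart from other differences between the arms. For siOGT1 none of the 36 genes passed, against 0.0378% of all genes with a higher and 0.0126% with a lower response. DESeq2 called 1 of the 36, beside 79 higher and 39 lower responses among all 23830 genes. By edgeR 1 gene of the 36 had an unadjusted p under 0.05, against 5.85% of all genes. That gene was ERRFI1 (log2 fold change -0.61, SE 0.16, adjusted p = 0.247), which read 35.5 and 32.4 CPM with DMSO and 36.4 and 34.00 CPM with AT7519 in Scr and 36.9 and 32.8 CPM with DMSO and 24.6 and 22.8 CPM with AT7519 in siOGT1. For siOGT2 none of the 36 passed, with 0% of all genes higher and 0% lower. None of the 36 had an unadjusted p under 0.05 in edgeR, against 3.89% of all genes. DESeq2 called 0 of the 36, beside 2 higher and 1 lower response among all genes. The 36 differences of siOGT2 from Scr lay between -0.32 and 0.23 on the log2 scale.

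For OSMI2, 1 of the 36 genes had a lower response and 0 a higher one, against 0.663% and 0.0839% of all genes, and 7 of the 36 had an unadjusted p under 0.05, against 8.76% of all genes. DESeq2 called 3, KCNN2, ERRFI1 and SLC45A3. Among all 23830 genes DESeq2 called 54 higher and 424 lower responses, where edgeR called 20 and 158. The gene of the 36 called by edgeR was KCNN2 (ENSG00000080709). It read 51.9 and 53.9 CPM with DMSO and 59.7 and 50.5 CPM with AT7519 in Scr, and 50.6 and 51.6 CPM with DMSO and 30.9 and 28.01 CPM with AT7519 in OSMI2. The agents overlapped in Scr and did not in OSMI2, and the OSMI2 samples with AT7519 were the lowest of all 16. The siOGT1 samples of KCNN2 read 44.95 and 49.9 CPM with DMSO and 45.7 and 40.1 CPM with AT7519, and those of siOGT2 44.9 and 39.02 and 40.7 and 39.5 CPM. The difference in response was -0.85 (SE 0.15, adjusted p = 0.00826). It did not pass without Scr DMSO replicate 1 (-0.82, adjusted p = 0.0628) or without OSMI2 DMSO replicate 2 (-0.83, adjusted p = 0.0577).

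Of the genes that did not pass in edgeR, the next by adjusted p were ERRFI1 (log2 fold change -0.64, SE 0.16, adjusted p = 0.0688), SLC45A3 (log2 fold change -0.59, SE 0.16, adjusted p = 0.101) and EAF2 (log2 fold change -0.96, SE 0.37, adjusted p = 0.37). DESeq2 gave ERRFI1 -0.67 (adjusted p = 0.00351) and SLC45A3 -0.62 (adjusted p = 0.0229). ERRFI1 read 32.5 and 30.2 CPM with DMSO and 22.96 and 18.4 CPM with AT7519 in OSMI2, lower than in the AT7519 samples of Scr and siOGT2. SLC45A3 read 153 and 181 and 164 and 144 CPM in Scr but 222 and 227 and 141 and 134 CPM in OSMI2, with DMSO and AT7519 in turn. EAF2 had a wide spread in Scr with DMSO, at 2.79 and 4.36 CPM. TMPRSS2 (-0.41) and PLPP1 (-0.32) also had unadjusted p-values under 0.05 toward a lower response and CAMKK2 (0.34) toward a higher one. The count of 1 was 0 without the libraries that ended the KCNN2 call, 3 without Scr AT7519 replicate 2, and 2 without OSMI2 AT7519 replicate 1 or any AT7519 sample of siOGT1 or siOGT2. The scatter of Scr against OSMI2 responses shows where the 36 genes lie.

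**Figure D5:**
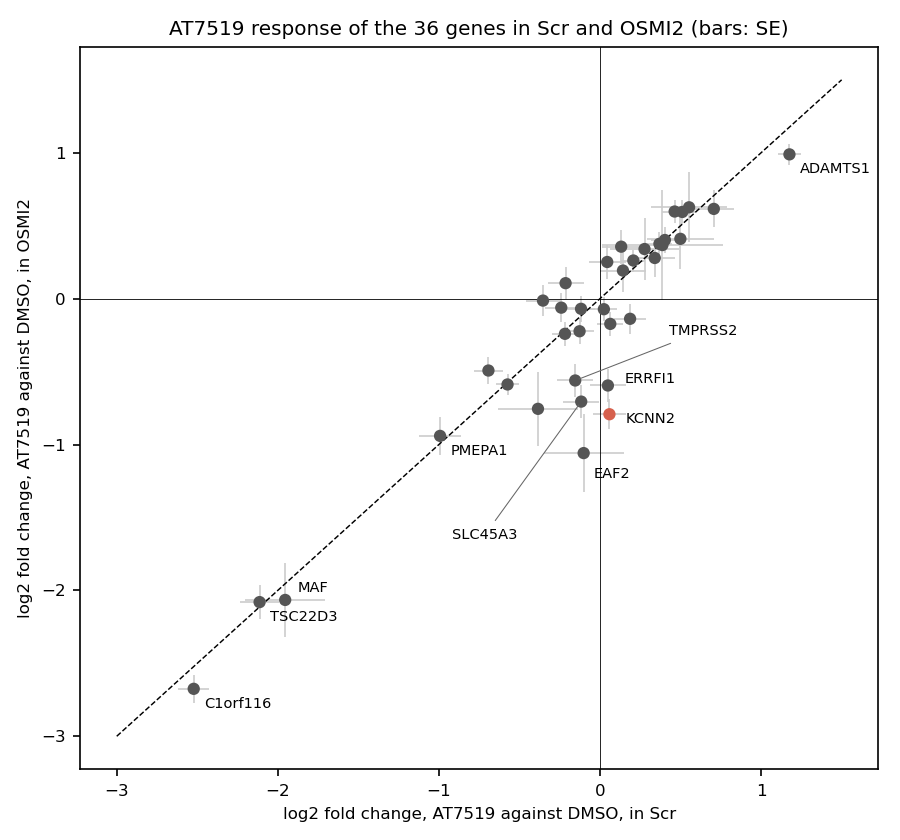
Log2 fold change of AT7519 against DMSO in Scr (horizontal axis) and in OSMI2 (vertical axis) for the 36 genes, with standard errors as bars, a dashed line where both are equal, and the called difference in a second colour. KCNN2 lies at 0.06 in Scr and -0.79 in OSMI2, while C1orf116, TSC22D3, MAF and ADAMTS1 lie near the dashed line.

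The other genes of the pathway were read from a list of 18, made of pioneer and lineage factors, coregulators and chaperones. In Scr, 6 of the 18 rose and 11 fell with AT7519 (median -0.47, or -0.31 with upper-quartile scaling and -0.71 with library size alone), against 21.8% and 24.6% of all genes. The counts were 4 and 12 in siOGT1 (median -0.42, against 19.4% and 22% of all genes), 6 and 12 in siOGT2 (-0.43, against 22.2% and 22.8%) and 4 and 11 in OSMI2 (-0.41, against 23.6% and 23.6%). The smallest adjusted p-values in Scr were those of the coactivators NCOA2 (log2 fold change -0.85, SE 0.08, adjusted p = 2.37e-08) and NCOA1 (log2 fold change -0.74, SE 0.09, adjusted p = 7.88e-07) and of the epithelial factor GRHL2 (log2 fold change -1.22, SE 0.11, adjusted p = 3.90e-08). Against Scr under DMSO, 1 of the 18 fell with siOGT1 (5.56%, against 5.51% of all genes), none passed with siOGT2 (against 1.92% higher and 2.38% lower) and 4 fell with OSMI2 (22.2%, against 2.49%), or 3 with upper-quartile scaling or library size alone. Of 7 genes that androgen is known to lower, 2 rose and 1 fell in Scr with AT7519. These are 28.6% and 14.3%, against 21.8% and 24.6% of all genes. UGT2B17 (0.69) and UGT2B15 (0.70), which inactivate androgens and share near-identical sequence, rose and OPRK1, an opioid receptor, fell (-1.94). The counts were also 2 and 1 in siOGT1 and siOGT2, and 3 and 2 in OSMI2. Against Scr under DMSO, 1 was higher and 1 lower with siOGT1 (all genes 4.89% and 5.51%). With siOGT2, 2 were higher and 1 lower (1.92% and 2.38%), over a range of -1.83 to 1.19. With OSMI2, 0 were higher and 1 lower (0.491% and 2.49%).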

How the data were processed

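RNA of 16 LNCaP samples was measured as 1 whole-number count per gene and sample in the deposited table of raw counts. Per the submitters' processing notes, the tools were STAR, HTSeq and DESeq2 and the builds hg19 and GRCh37. Versions, settings and the strand used in counting were not given in the sources used here. A deposited table of normalized values was not used. Of 60252 gene identifiers, 55528 were matched to a symbol. The 36 genes, the gene lists and the tests were chosen with earlier results of these data known, and 2 genes of the pathway are not reported here.

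All 16 samples entered 1 fit with edgeR 4.0.16 (R 4.3.3). Low genes were removed with filterByExpr given the 8 groups (minimum count 10), TMM factors scaled the libraries, and genes were fitted with 1 mean per group by the robust quasi-likelihood method. This left 8 residual degrees of freedom, with a common biological coefficient of variation of 0.11. Tests were two-sided, with Benjamini-Hochberg adjustment over all 23830 genes tested at 0.05, and each standard error is the absolute fold change (log2) divided by the root of the F statistic. AT7519 was compared with DMSO within each arm, and each OGT arm with Scr, first under DMSO and then in its AT7519 response. The fits were tested on simulated data with independent samples and the same spread for every gene. That setting is simpler than these data, in which deviations were shared between samples. The precision is limited by 2 samples per group, and libraries of 40216911 to 147019364 counts.

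Full values were given for the 8 largest falls and 6 largest rises called in Scr, for genes called with both siRNAs, for the 4 largest OSMI2 calls and for up to 4 genes per difference in response. Other genes, such as ADAMTS1 and STEAP2 with siOGT1, were named after their values were seen. Gene spans, exons and overlaps come from GENCODE v29 on GRCh38, another build than the counts, so no coordinate of it is given (GenomicRanges 1.54.1). Promoter sequences are those of RefSeq on GRCh38.p14. The alternatives tried were scaling by RLE, by the upper quartile or by library size alone, DESeq2 1.42.0, voom in limma 3.58.1, all genes kept, genes kept from a mean log2 CPM of 3 upward, fits on the compared groups, replicate blocks, and leaving out each sample.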

Additional observations from a re-analysis of the deposited data

Results flagged for a closer look

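The AT7519 response of KCNN2, the calcium-activated potassium channel, differed between the OSMI2 arm and Scr by -0.85 on the log2 scale (SE 0.15, adjusted p = 0.00826, edgeR's quasi-likelihood test of the interaction). It drew attention because the difference between the arms was itself tested and passed, with both OSMI2 samples moving down and the Scr samples of the 2 agents overlapping. The call ended without Scr DMSO replicate 1 or OSMI2 DMSO replicate 2. Since it was not given whether OSMI2 cells carried scrambled siRNA, OGT inhibition cannot be told apart from other differences between the arms.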

How the results depend on the processing

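Over the 87 calls of the 36 genes in all comparisons, 2125 values under the alternatives kept their side of the threshold, 147 did not pass and 5 were not tested. ABCC4 changed sign with library size alone, to -0.04 in Scr and -0.0046 in siOGT1, and no other call that could be tested did. The counts for AT7519 against DMSO stayed within 1.5 times in all 4 arms. For siOGT1 against Scr, 6 calls became 12 with only the groups compared and 13 with a replicate block within each agent, and 2 to 8 with 1 sample left out. For siOGT2, 5 became 9 with upper-quartile scaling, library size alone, DESeq2 or no low-count filter, 10 with the mean log2 CPM filter, 12 with only the groups compared, and 0 to 8 with 1 sample left out. For OSMI2, 4 became 7 with only the groups compared, 8 with a block within each agent, and 0 to 4 with 1 sample left out. The siOGT1 difference in response went from 0 calls to 1 with DESeq2, with no filter and with either block. The OSMI2 difference went from 1 to 2 with RLE scaling, 3 with DESeq2, 4 with no filter, 3 with only the groups compared, and 0 to 3 with 1 sample left out. Calls among all genes changed as well. With a block within each agent, siOGT1 had 2022 higher and 2365 lower, against 1165 and 1314 in the main fit. For siOGT2 these were 1066 and 1508 against 457 and 568, and for OSMI2 581 and 1810 against 117 and 593. With no filter the OSMI2 difference had 46 and 505 against 20 and 158. The cause of these changes was not tested.

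The replicate block gave 9 calls for siOGT2 against Scr and 2 for the OSMI2 difference, and within each agent it gave 13 and 3. Same-numbered samples of different siRNA arms deviated together under the same agent (r of 0.604 to 0.734 across 10158 genes) but not between agents (-0.135 to 0.038). OSMI2 samples deviated together between agents (0.432) and less with the siRNA arms (0.045 to 0.185 under the same agent), and the KCNN2 difference passed with either block (adjusted p = 0.00213 and 2.4e-05). With 2 numbers per group the labels do not establish a pairing. A crossed pairing in siOGT2, chosen after seeing the data, left 15 calls. With the replicate block, genes that passed in no arm for AT7519 gained calls: HERC3 was higher in siOGT1 (adjusted p = 0.0111), siOGT2 (0.0126) and OSMI2 (0.0258), HPGD in siOGT1 (0.0343) and TRPM8 in Scr (0.0307), and RAB3B was lower in Scr (0.0185).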
